A study of Mus musculus with 23 samples.

Results

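Genes linked to neutrophils and to the acute-phase response, S100a8, S100a9, Saa3, Lcn2, Csf3r and Retnlg (6 in all), were followed across 23 melanoma tumors. They were chosen by gene symbol, and all 6 were found among the 56748 genes of the count table. The tumors grew from B16-F1 cells, an established mouse melanoma line, implanted under the skin of DBA/2J mice aged 6 to 8 weeks. In the intraperitoneal (IP) arm, CONTROL_IP received saline, PTX_IP pentoxifylline at 60 mg/kg, NCTD_IP norcantharidin at 3 mg/kg and MIX_IP both drugs at these doses, with 2 tumors in each group. In the intratumoral (IT) arm the same doses were injected into the tumor and CONTROL_IT received DMSO, with 4 tumors in CONTROL_IT, NCTD_IT and MIX_IT and 3 in PTX_IT. Each tumor carries the number of its label. Route, vehicle and the batch named in the labels coincide and cannot be told apart.

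Neutrophils are short-lived white blood cells that leave the blood for inflamed tissue. Their cytosol is rich in calprotectin, the pair of calcium-binding proteins made from S100a8 and S100a9, and they carry the receptor for granulocyte colony-stimulating factor, Csf3r, which sustains their production and survival. Acute-phase genes such as Saa3 and Lcn2 are switched on by inflammatory cytokines, in neutrophils and macrophages but also in fibroblasts and epithelial cells, so that none of the 6 genes marks neutrophils alone. In bulk tumors, fewer cells of a type and less RNA per cell cannot be told apart.

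All 6 genes are protein-coding. On GRCm39, S100a8 (ENSMUSG00000056054) lies at chr3:90576285-90577342 on the plus strand and S100a9 (ENSMUSG00000056071) at chr3:90599939-90603028 on the minus strand, 22596 bases apart with 0 annotated genes between them. Saa3 (ENSMUSG00000040026) lies at chr7:46361422-46365124 on the minus strand, Lcn2 (ENSMUSG00000026822) at chr2:32274645-32278264 on the minus strand, Csf3r (ENSMUSG00000028859) at chr4:125918343-125938233 on the plus strand and Retnlg (ENSMUSG00000022651) at chr16:48692984-48694859 on the plus strand.

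The bases upstream of S100a8, S100a9 and Saa3 are shown because these 3 genes carried the calls made below. The sequences are RefSeq promoter sequences, tabulated on GRCm38.p6 and placed on GRCm39 by exact match at chr3:90576128-90576284 (plus strand), chr3:90603029-90603278 (minus strand) and chr7:46365125-46365350 (minus strand), leaving out bases inside the annotated gene. Capitals mark letters matching, on either strand, the C/EBP motif TTNNGNAA or the PU box GAGGAA.
S100a8: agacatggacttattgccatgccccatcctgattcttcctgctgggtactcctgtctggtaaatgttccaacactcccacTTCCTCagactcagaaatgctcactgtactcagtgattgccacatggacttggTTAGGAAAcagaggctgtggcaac
S100a9: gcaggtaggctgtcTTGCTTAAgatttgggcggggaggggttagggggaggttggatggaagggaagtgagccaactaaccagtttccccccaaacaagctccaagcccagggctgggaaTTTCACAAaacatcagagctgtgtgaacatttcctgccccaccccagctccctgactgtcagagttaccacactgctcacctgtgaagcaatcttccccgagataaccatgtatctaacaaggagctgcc
Saa3: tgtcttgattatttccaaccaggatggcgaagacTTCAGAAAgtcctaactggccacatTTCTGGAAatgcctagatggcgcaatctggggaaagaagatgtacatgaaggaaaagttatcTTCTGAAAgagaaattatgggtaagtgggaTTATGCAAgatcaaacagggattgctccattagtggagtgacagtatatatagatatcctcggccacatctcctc
In the 250 bases before the RefSeq start, the C/EBP letters occurred 4 times for Saa3, 2 times for S100a9 and 1 time each for S100a8, Lcn2 and Retnlg, and 36.8% of 32851 promoters held them. The PU box was found for S100a8, Lcn2 and Csf3r, against 23.3% of promoters. The TATA letters TATAAA were found for S100a8 alone among the 6, against 12.4% of promoters, and the kappa B motif, present in 4.1% of promoters, was found for 0 of the 6. Such matches describe the letters and do not show binding.

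Total gene counts ran from 2861578 to 6702374 a tumor, so that 3 counts, taken as the floor, equal 0.449 to 1.04 CPM (normalised counts, scaled to the same library size). The floor covers counting error only. Pairs of tumors within a group differed beyond sampling noise (chi-square over its degrees of freedom 8.09 to 64.6). The 7 melanoma markers summed to between 15319 CPM (MIX_IT 23) and 37163 CPM (PTX_IP 3), and all 7 had counts in every tumor. Xist was counted 15 to 51 times in NCTD_IT and 5 to 36 times in PTX_IT, but 0 to 2 times in CONTROL_IT and 0 times in MIX_IT, while the Y-linked gene Ddx3y was at 0 or 1 count in NCTD_IT and PTX_IT and at 4 or more in CONTROL_IT and MIX_IT. In the IP arm CONTROL_IP 2 had 55 counts of Xist and 3 of Ddx3y, while the other 7 tumors had 0 of Xist and 15 or more of Ddx3y. CONTROL_IP 2 was also the lower control for S100a8, S100a9 and Saa3. Sex is not labelled. The paper's methods describe the groups as matched by sex, while these counts differ between the IT groups by treatment. Within the IT arm sex cannot be told apart from NCTD or PTX given alone.

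**Figure D1:**
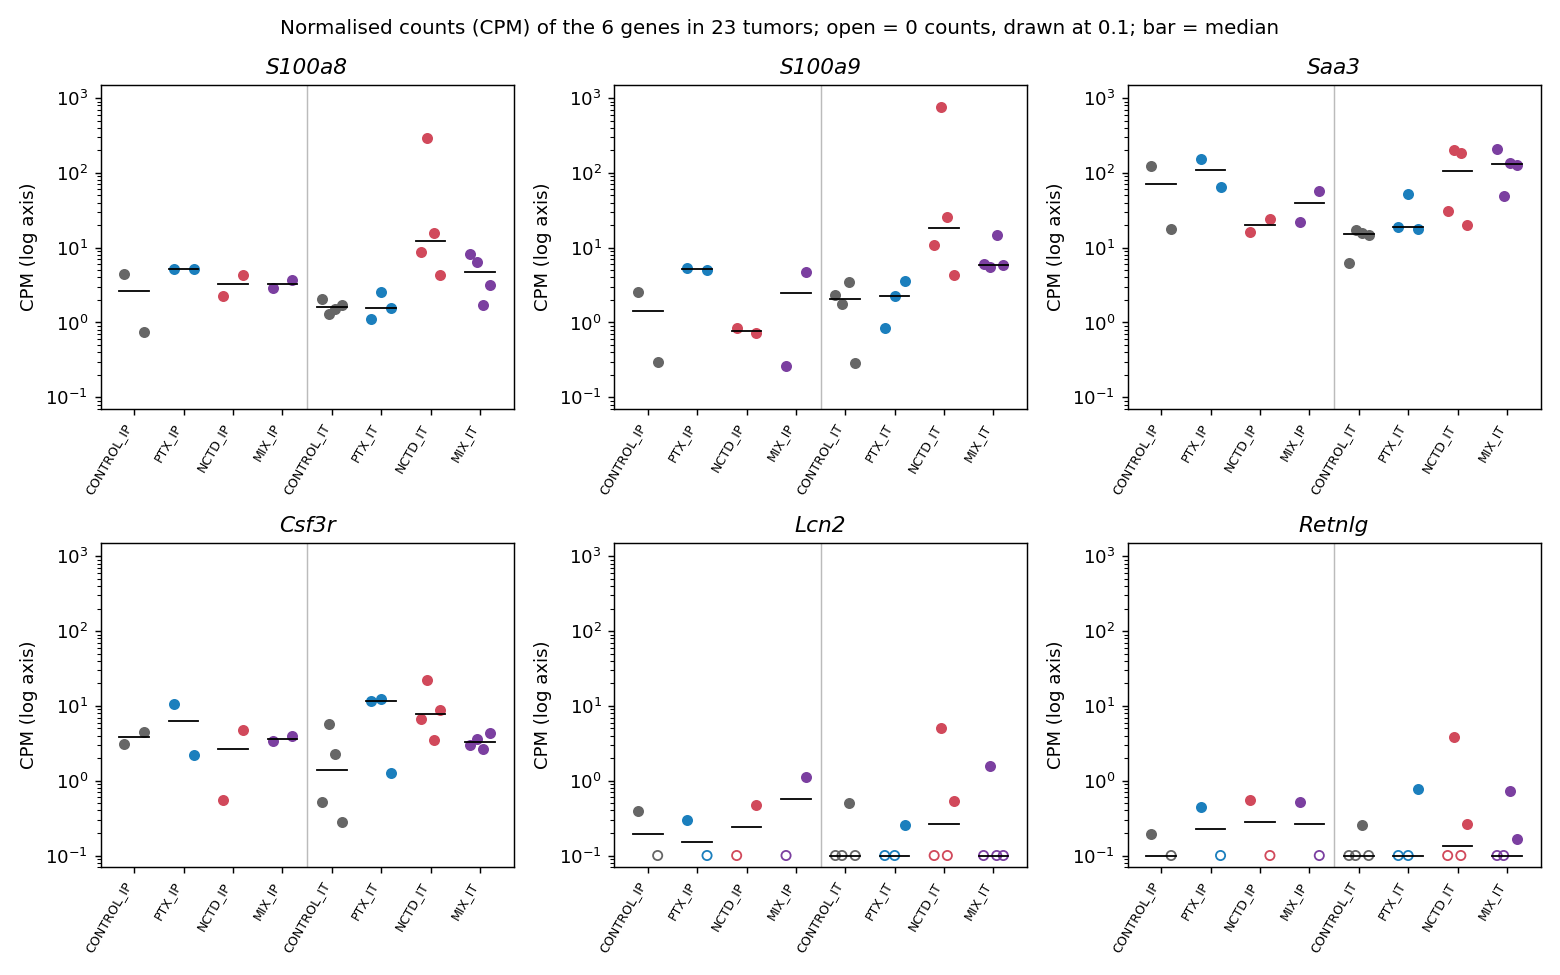
Normalised counts in CPM (log axis) of the 6 genes in each tumor, by group, with IP groups left of the grey line and IT groups right of it. Each point is a tumor, bars are medians, and open points are tumors at 0 counts drawn at 0.1 CPM; NCTD_IT 18 stands above all other tumors for S100a8 (295 CPM) and S100a9 (758 CPM).

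S100a8, S100a9 and Saa3 were higher in NCTD_IT than in CONTROL_IT. S100a8 encodes the smaller subunit of calprotectin. Its level was 2.06, 1.31, 1.51 and 1.70 CPM in CONTROL_IT 9 to 12 and 8.69, 295, 15.9 and 4.27 CPM in NCTD_IT 17 to 20. All 4 NCTD_IT tumors lay above all 4 control tumors, and NCTD_IT 18 alone held 71.6% of the S100a8 counts of the 23 tumors. The log2 fold change was 5.60 ± 1.16 (SE; adjusted p = 0.0363 by edgeR's quasi-likelihood test with Benjamini-Hochberg adjustment over 12480 genes).

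S100a9, its partner subunit, was at 2.32, 1.75, 3.53 and 0.283 CPM in CONTROL_IT 9 to 12 and at 10.8, 758, 25.6 and 4.27 CPM in NCTD_IT 17 to 20. The groups again did not overlap, and NCTD_IT 18 held 84.8% of all S100a9 counts. The log2 fold change was 6.63 ± 1.40 (SE; edgeR adjusted p = 0.0363).

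Saa3, a local serum amyloid A induced by inflammation, was at 6.18, 17.1, 15.6 and 14.99 CPM in CONTROL_IT 9 to 12 and at 30.6, 204, 184 and 20.3 CPM in NCTD_IT 17 to 20. The high tumors were NCTD_IT 18 and 19, with all 4 above the controls, and the log2 fold change was 3.01 ± 0.68 (SE; edgeR adjusted p = 0.0423). Of the 4 of these 6 genes that passed the filter on low counts, 3 were therefore called, against 1.37% of all genes tested (171 of 12480). The same 3 did not overlap between the groups, against 7.82% of genes that were higher without overlap. S100a8 had at most 8 counts in CONTROL_IT and PTX_IT tumors, under the filter's minimum of 10. S100a9 had 9, 8, 14 and 1 counts in CONTROL_IT 9 to 12 and 3, 7 and 14 in PTX_IT 13, 15 and 16. Both genes passed mainly through NCTD_IT and MIX_IT. These shares are therefore not independent of the filter.

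Csf3r was at 0.515, 5.70, 2.27 and 0.283 CPM in CONTROL_IT 9 to 12 and at 6.61, 22.3, 3.46 and 8.80 CPM in NCTD_IT 17 to 20. These ranges overlapped at CONTROL_IT 10 and NCTD_IT 19, and the log2 fold change of 2.18 ± 0.79 did not pass (edgeR adjusted p = 0.130). In DESeq2 on the same groups Csf3r passed (adjusted p = 0.0350), as did Saa3 (adjusted p = 0.00502) and 10.6% of genes. For S100a8 and S100a9 DESeq2 gave log2 fold changes of 5.64 ± 1.28 and 6.68 ± 1.53 without a p-value, so that it called neither.

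**Figure D2:**
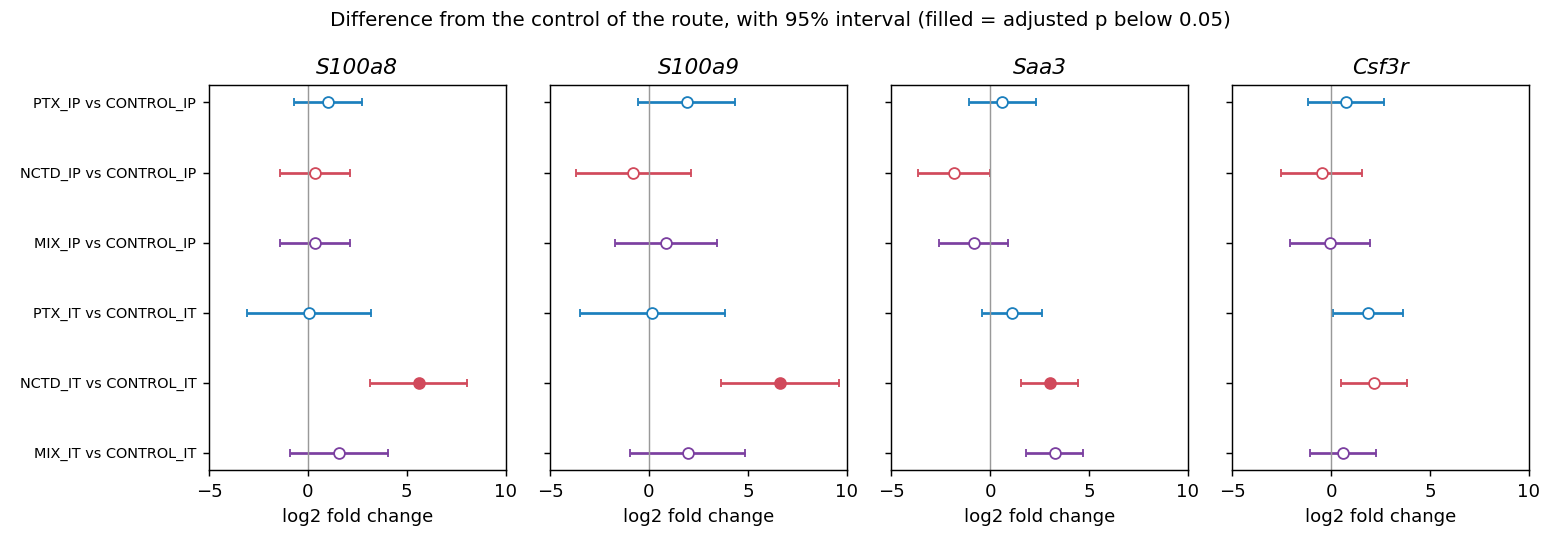
Log2 fold change against the control of the same route for the 4 genes that were tested, with 95% intervals derived from the edgeR F statistic. Filled points passed an adjusted p of 0.05: S100a8 (5.60), S100a9 (6.63) and Saa3 (3.01) in NCTD_IT.

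The calls in NCTD_IT depended on which tumors entered the fit. Without NCTD_IT 18 the log2 fold changes were 2.53 ± 0.60 for S100a8, 2.75 ± 0.70 for S100a9 and 2.53 ± 0.68 for Saa3, with edgeR adjusted p of 0.105, 0.126 and 0.141, and the 3 remaining NCTD_IT tumors still lay above every control tumor. No member was called either without CONTROL_IT 9, 10, 11 or 12 or without NCTD_IT 17, where the log2 fold changes of S100a8 stayed between 5.52 and 6.00 and its adjusted p between 0.0508 and 0.142. Without NCTD_IT 19 Saa3 was lost (edgeR adjusted p = 0.0583), and without NCTD_IT 20 all 3 were kept. With Xist as a covariate, which nearly follows the treatment here, the log2 fold change was 0.34 ± 3.94 for S100a8, 3.56 ± 4.38 for S100a9 and 1.91 ± 1.42 for Saa3, that of Csf3r turned to -2.35 ± 1.68, and 0 of the 4 were called.

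**Figure D3:**
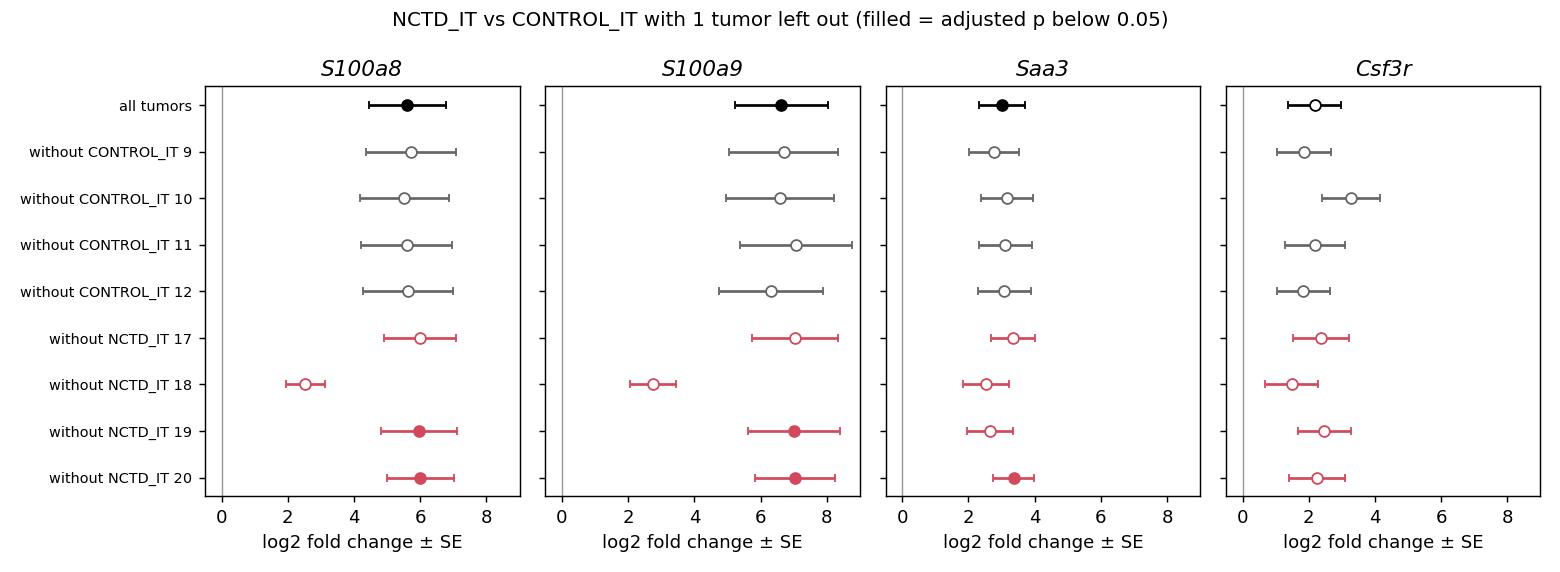
Log2 fold change (± SE) of the 4 tested genes in NCTD_IT against CONTROL_IT with all 8 tumors and with each tumor left out, filled where the edgeR adjusted p was below 0.05. Leaving out NCTD_IT 18 moved S100a8 from 5.60 to 2.53 and S100a9 from 6.63 to 2.75, while Saa3 moved from 3.01 to 2.53.

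NCTD_IT 18 also stood apart in some of the gene lists around these 6. Of the 6 members, 5 reached their highest level there, though the tumor was singled out for its S100a8 and S100a9 levels. Likewise highest there were 12 of 19 neutrophil identity and receptor genes and 6 of 7 neutrophil-attracting chemokines and growth factors with any count. This held for 9.86% of the 13395 genes past the filter, while the lists include genes under it. It also held for 6 of 15 inducers of Lcn2 and Saa3 and 3 of 12 other acute-phase genes. For granule and oxidase genes it was 2 of 16 and for receptors and relatives 1 of 17. The chemokine Cxcl2 was at 1270 CPM and the cytokine Il1b at 828 CPM, with the next tumors at 79.2 and 70.7 CPM. Cxcr2, the receptor of such chemokines on neutrophils, was at 13.2 CPM against at most 2.91 CPM elsewhere. The histidine decarboxylase gene Hdc reached 93.1 CPM (next 8.06) and the decoy receptor Il1r2 30.0 CPM (next 3.62). Genes made by immature neutrophils were near 0 in the same tumor, with 2 counts of Mpo, 3 of Elane and 0 of Ngp and Camp. Though within 3 counts, Mpo (0.587 CPM, next 0.252) and Elane (0.881 CPM, next 0) were highest there. Ltf and Mmp8 of the granule and oxidase list had 5 and 6 counts there. Ly6g, the usual surface marker of mouse neutrophils, had 0 counts there and in all 15 IT tumors. The tumor did not have the highest level of any of the 8 macrophage or 7 fibroblast markers. Its fibroblast sum of 1681 CPM was nevertheless the highest in NCTD_IT, exceeded only in MIX_IT 21 (1879 CPM) and MIX_IT 23 (8601 CPM). Its macrophage sum of 571 CPM lay inside the range of the other NCTD_IT tumors (343 to 1192 CPM). Of 5 monocyte markers 2 were highest in NCTD_IT 18, Fn1 at 296 CPM (next 185) and Vcan at 13.5 CPM (next 11.9). Keratinocyte markers from skin summed to 16.7 CPM in NCTD_IT 18. The sum was 16.5 CPM in MIX_IT 23 and 135 CPM in PTX_IP 3. Of these 12 markers 1, Krt16, was highest in NCTD_IT 18, at 5.87 CPM (next 0.561). The part of keratinocytes in the result was not tested.

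Lcn2, an iron-scavenging secreted protein of neutrophil granules and inflamed tissues, and Retnlg, a resistin-like gene of neutrophils, did not pass the filter on low counts in any of the 3 edgeR models. Lcn2 was counted 17 times in NCTD_IT 18 (4.99 CPM), 10 times in MIX_IT 22 (1.56 CPM) and at most 4 times in any other tumor. Retnlg was counted 13 times in NCTD_IT 18 (3.82 CPM) and at most 3 times elsewhere. Without the filter, their unadjusted p in NCTD_IT against CONTROL_IT was 0.0637 and 0.0720 (edgeR), and by DESeq2 it was 0.0860 and 0.0815. No difference was detected at these counts, most of them in 1 NCTD_IT tumor.

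In MIX_IT, Saa3 was the tested gene farthest from control. It was at 208, 48.7, 134 and 129 CPM in MIX_IT 21 to 24, all above the highest control value of 17.1 CPM. The log2 fold change of 3.26 ± 0.69 had an unadjusted p of 0.000208 and did not pass in edgeR (adjusted p = 0.122), where 0 of 12480 genes were called (0%) and 1622 had an unadjusted p below 0.05. In DESeq2 it passed (adjusted p = 2.5e-12), as did 1.92% of genes.

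Calprotectin showed smaller differences in MIX_IT. S100a8 was at 8.35, 6.40, 1.70 and 3.16 CPM in MIX_IT 21 to 24 and overlapped with control at MIX_IT 23 (log2 fold change 1.57 ± 1.17). S100a9 was at 5.99, 5.46, 14.6 and 5.83 CPM, above all 4 controls (log2 fold change 1.96 ± 1.37, edgeR adjusted p = 0.579). MIX_IT 23, lowest of its group for S100a8 with 7 counts, was highest for S100a9 with 60 counts. Csf3r was at 3.00, 3.59, 2.67 and 4.33 CPM, inside the control range. Saa3 and S100a9 were thus the 2 genes without overlap, against 4.93% of all genes.

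In PTX_IT, 0 of the 4 tested genes passed, as for all genes (0%, with 792 at an unadjusted p below 0.05, against 15 called by DESeq2). Csf3r was at 11.7, 12.2 and 1.28 CPM in PTX_IT 13, 15 and 16, with a log2 fold change of 1.87 ± 0.83 (edgeR adjusted p = 0.785). Saa3 was at 18.95, 51.9 and 17.98 CPM, above all controls but by a log2 fold change of 1.11 ± 0.71 (edgeR adjusted p = 0.811), and non-overlap of this direction held for 3.81% of genes. S100a8 (1.11, 2.58 and 1.54 CPM) and S100a9 (0.836, 2.26 and 3.60 CPM) lay close to control, with 95% intervals of the log2 fold change from -3.07 to 3.20 and from -3.50 to 3.85.

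The combination was also set against each drug alone. Against NCTD_IT, S100a8 and S100a9 in MIX_IT had log2 fold changes of -4.03 ± 1.02 and -4.67 ± 1.21, with unadjusted p of 0.00109 and 0.00135 but edgeR adjusted p of 0.713 and 0.803 (1 of 12480 genes called, 0.00801%). The ranges overlapped, and without NCTD_IT 18 the difference for S100a8 was -0.97. With Xist as a covariate it turned to 1.78 ± 3.65 for S100a8. Saa3 differed little between MIX_IT and NCTD_IT (0.25 ± 0.62, 95% interval -1.05 to 1.55). Against PTX_IT, Saa3 was 2.15 ± 0.72 apart (edgeR adjusted p = 0.982, with 0% of genes called, and 1 of the members, Saa3, called by DESeq2 with an adjusted p of 0.0118, against 0.0431% of genes). The departure of MIX_IT from the sum of both drugs was -3.46 ± 1.12 on the log2 scale for Csf3r (unadjusted p = 0.00707, edgeR adjusted p = 0.379), and 0 of the 4 members were called against 0.0401% of genes. With Xist as a covariate this departure turned to 5.69 ± 3.27 for Csf3r.

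In the IP arm, with 2 tumors a group, 0 of the 4 tested genes were called in PTX_IP, NCTD_IP or MIX_IP, as for all 12424 genes (0% in each, against 659, 446 and 365 genes whose unadjusted p was below 0.05 and 4, 11 and 12 that DESeq2 called). S100a8 was at 4.47 and 0.751 CPM in CONTROL_IP, 5.24 and 5.24 in PTX_IP, 2.24 and 4.297 in NCTD_IP and 2.87 and 3.65 in MIX_IP. S100a9 was at 2.52 and 0.300 CPM in CONTROL_IP, 5.39 and 5.02 in PTX_IP, 0.840 and 0.716 in NCTD_IP and 0.261 and 4.77 in MIX_IP. Only the PTX_IP tumors lay above both controls for these genes, which 15.7% of all genes did too.

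Saa3 spanned a wide range within the IP control, at 124 and 18.03 CPM, and was at 153 and 64.4 CPM in PTX_IP, 15.96 and 24.4 in NCTD_IP and 21.9 and 57.2 in MIX_IP. Its log2 fold change was -1.80 ± 0.81 in NCTD_IP (edgeR adjusted p = 0.999). Csf3r was at 3.11 and 4.51 CPM in CONTROL_IP, 10.5 and 2.18 in PTX_IP, 0.560 and 4.77 in NCTD_IP and 3.39 and 3.93 in MIX_IP, with overlap throughout. Directions in this arm depended on the control tumor. Without CONTROL_IP 1 the log2 fold change in NCTD_IP turned to 0.17 for Saa3 and 1.30 for S100a9, and that of Saa3 in MIX_IP to 1.14. Without CONTROL_IP 2 that of S100a8 turned to -0.44 in both NCTD_IP and MIX_IP, that of S100a9 in MIX_IP to -0.01 and that of Saa3 in PTX_IP to -0.20.

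The difference between routes was tested directly in a model of all 23 tumors. Averaged over treatments, IT exceeded IP by 2.25 ± 0.91 on the log2 scale for S100a9 (edgeR adjusted p = 0.258) and by 0.75 ± 0.66 for S100a8, with 0 of 4 called against 0.739% of genes. The effect of NCTD by the IT minus the IP route was 7.37 ± 2.91 for S100a9 and 4.82 ± 1.24 for Saa3 (edgeR adjusted p = 0.380 and 0.271). That of MIX was 4.11 ± 1.21 for Saa3 (edgeR adjusted p = 0.584). Each moved by over 1.5 times when 1 tumor was left out: S100a9 to 3.54 without NCTD_IT 18, Saa3 to 2.83 for NCTD and 2.11 for MIX without CONTROL_IP 1. Without NCTD_IT 18, the difference averaged over treatments was 1.26 for S100a9 and turned to -0.02 for S100a8. 0 of the 4 were called for the PTX, NCTD or MIX effect by route, where edgeR called 0% of 13395 genes in each. For NCTD and MIX, 1452 and 996 genes had an unadjusted p below 0.05, while DESeq2 called Saa3 in both (adjusted p = 0.0340 and 0.0400), against 3.75% and 1.10% of genes.

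The wider lists of the pathway were compared in NCTD_IT against CONTROL_IT. Of 10 tested neutrophil identity and receptor genes, 0 were called by edgeR, with 6 higher at an unadjusted p below 0.05 and a median log2 fold change of 1.82 beside 0.03 over all genes. At that unadjusted p stood 2698 of all 12480 genes, counting both directions. Of 6 tested chemokines and growth factors, Cxcl2 was called (4.86 ± 1.04, edgeR adjusted p = 0.0363). Csf3, the ligand of Csf3r, had 0 counts in all 23 tumors, which allows up to 0.449 to 1.04 CPM. Of 8 tested granule and oxidase genes, Mmp9, a gelatinase stored in neutrophil granules and made by other cells too, was called (5.18 ± 0.92, edgeR adjusted p = 0.0280). Of 5 other acute-phase genes, 11 inducers of Lcn2 and Saa3 and 10 receptors and relatives, 0 were called. Markers of other cell types moved in the same comparison, with median log2 fold changes of 1.53 for 7 macrophage markers (3 higher at an unadjusted p below 0.05), 1.89 for 4 T cell markers (1 higher), 1.97 for 6 fibroblast markers (5 higher) and -1.77 for 4 erythroid markers (3 lower). The summed level ran from 83.2 to 566 CPM in CONTROL_IT and from 343 to 1192 CPM in NCTD_IT for macrophage markers, from 0 to 26.7 and from 7.61 to 97.6 CPM for T cell markers, and from 1238 to 6944 and from 258 to 1360 CPM for erythroid markers. None of these genes was called, while the melanoma marker Mitf, a transcription factor of the pigment lineage, was called lower (-0.86 ± 0.18, edgeR adjusted p = 0.0363). Their part in the result was not tested. Without NCTD_IT 18, a setting chosen after that tumor was seen, no gene of these lists was called and the identity genes had a median of 0.91 over 9 genes.

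Saa3 varied with connective-tissue genes across the tumors. The genes most like it in rank over 23 tumors were Col1a2 (Spearman's rho 0.90), Col1a1 (0.89) and Ccn4 (0.88). With the summed CPM of 7 fibroblast markers, Saa3 had a Pearson's r of 0.81 on log2 CPM and a rho of 0.90 (0.93 within IP and 0.90 within IT), and r was 0.85 without the 2 tumors farthest from the median. That sum was 109 to 369 CPM in CONTROL_IT, 391 to 1681 CPM in NCTD_IT and 494 to 8601 CPM in MIX_IT, without overlap with control. In MIX_IT all 6 tested fibroblast markers had an unadjusted p below 0.05 and 0 were called (median log2 fold change 3.38, beside 0.01 over all genes). Their part in the Saa3 values was not tested.

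Csf3r was most like Sorl1 (rho 0.92), Il4ra (0.91) and Diaph1 (0.90), and had a rho of 0.86 with the sum of the neutrophil identity and receptor genes, 0.85 with that of 8 macrophage markers and 0.80 with that of the inducers of Lcn2 and Saa3. S100a9 was most like Emcn (0.91), Tbpl1 (0.85) and Rasa2 (0.84), and S100a8 most like Sdr42e1 (0.77), Gm16045 (0.72) and Snhg20 (0.72), with S100a8 and S100a9 themselves at fewer than 10 counts in several tumors. S100a8 and S100a9 correlated with an r of 0.86 and a rho of 0.67, and r was 0.52 without NCTD_IT 18 and 19. With the sum of the neutrophil identity and receptor genes, rho was 0.30 for S100a8 and 0.05 for S100a9. Without NCTD_IT 18 these were 0.20 and -0.09. With the granule and oxidase sum rho was 0.01 and -0.35, and with the chemokine and growth factor sum 0.60 for each. These correlations describe tumors that share groups, and no test was made.

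**Figure D4:**
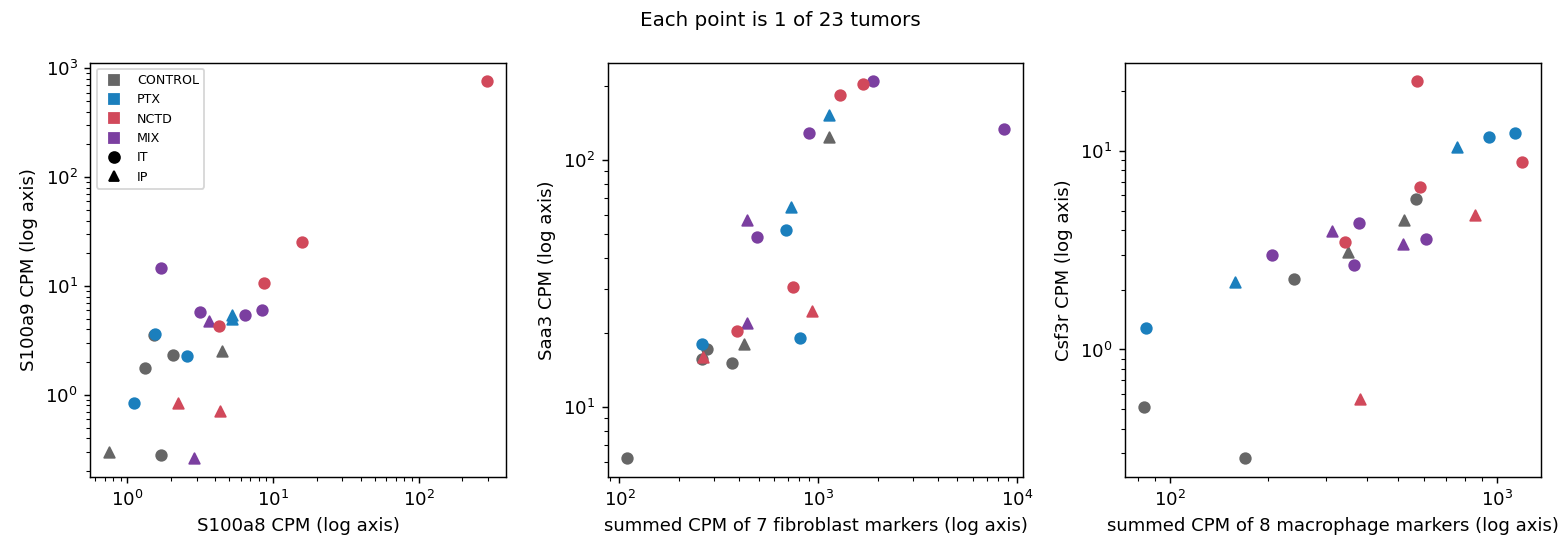
S100a9 against S100a8, Saa3 against the summed fibroblast markers, and Csf3r against the summed macrophage markers, in CPM on log axes, with a point for each of the 23 tumors (circles IT, triangles IP). NCTD_IT 18 is the isolated point of the first panel, and Saa3 rises with the fibroblast sum (rho 0.90) up to MIX_IT 23 at 8601 CPM.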

How the data were processed

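Gene expression was measured in 23 tumors by sequencing the 3′ end of messenger RNA. Per the labels and the methods, the authors trimmed reads with Trimmomatic, aligned them to GRCm39 with STAR 2.7.11b and deposited raw read counts per gene; the strand setting and the treatment of multiply aligned reads are not given in the sources used here. The 6 genes, the lists and the tests were chosen with earlier results of these data known.

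Groups were taken from the labels. The tests used edgeR 4.0.16 in R 4.3.3 (filterByExpr, minimum count 10 and total 15, TMM, quasi-likelihood, two-sided), with 1 model per route and 1 of all 23 tumors for routes, at a Benjamini-Hochberg adjusted p of 0.05 over all genes. The edgeR SE was the absolute log2 fold change over the square root of its F statistic, and the 95% intervals were built from it. CPM used TMM over 23 tumors, and log2 CPM a prior count of 2. Named genes are the 6 members, list genes that were called, the leading markers of each list and the 3 genes of highest rho. Cxcl2, Il1b, Hdc, Cxcr2, Il1r2, Mpo, Elane, Ngp, Camp, Ltf, Mmp8 and Csf3 were named after their values were seen. The code was tested on simulated data. Alternatives were DESeq2 1.42.0, its size factors, no filter, other samples in the model, Xist as a covariate and leaving out each tumor. Samples are separate tumors by label, and p-values measure the spread between them. Depth was 2861578 to 6702374 counts per tumor.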

Additional observations from a re-analysis of the deposited data

Results flagged for a closer look

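For normally distributed values, which CPM need not be, chance gives about 0.9 outlying values in the 18 groups and genes checked. Values of a gene that lay far from the rest of their group were found in 8. In NCTD_IT 18 these were S100a8 (295 CPM, next 15.9), S100a9 (758 CPM, next 25.6), Lcn2 (4.99 CPM, next 0.533) and Retnlg (3.82 CPM, next 0.267). S100a9 in MIX_IT 23 was at 14.6 CPM, with the next tumor at 5.99. Lcn2 in CONTROL_IT 11 (0.504 CPM) and MIX_IT 22 (1.56 CPM) was flagged, as was Retnlg in CONTROL_IT 11 (0.252 CPM). All other tumors of these groups had 0 counts for the gene, so that any count would be flagged. The values in CONTROL_IT 11 are under the floor of 3 counts.

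By route, every tumor moved opposite ways from its control mean for the effect of NCTD on S100a9 (difference IT minus IP 7.37 on the log2 scale) and Saa3 (4.82), and for the effect of MIX on Saa3 (4.11). The test of each difference did not pass in edgeR (adjusted p = 0.380, 0.271 and 0.584), and both NCTD_IP values of S100a9 rest on 3 counts. The IP direction depends on CONTROL_IP 1: without it the log2 fold change in NCTD_IP was 1.30 for S100a9 and 0.17 for Saa3, and that of Saa3 in MIX_IP was 1.14.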

How the results depend on the processing

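In NCTD_IT against CONTROL_IT, 3 members were called as reported, 0 with Xist as a covariate, and between 0 and 3 over the 8 fits that left out a tumor. Without the filter on low counts, members were called where the reported fit called 0: 1 in NCTD_IP, 1 in PTX_IT, 3 in MIX_IT, 2 in MIX_IT against PTX_IT, 2 in MIX_IT against NCTD_IT, 3 for the departure from the sum, 1 for IT against IP, 3 for the NCTD effect by route and 1 for the MIX effect by route. In the same order, 71, 222, 364, 109, 190, 443, 453, 283 and 139 of all genes were called, more than as reported in each. The SE of S100a9 in NCTD_IT fell from 1.40 to 0.32 without the filter. DESeq2 called 1 member, Saa3, in MIX_IT, in MIX_IT against PTX_IT and for the NCTD and MIX effects by route. The cause was not tested. Of the member log2 fold changes under an alternative, 660 stayed on their side of the threshold or within the spread. A further 23 moved, 23 newly passed and 22 no longer passed. Another 12 values were not given, because DESeq2 returned no p-value or the gene fell under the filter with only the compared groups modelled.

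The number of genes called in NCTD_IT was 171 as reported, 1378 with DESeq2, 1190 without the filter, 946 with only these 2 groups in the model, 777 with all 23 tumors, 0 with Xist, and 0 to 191 without a tumor. In MIX_IT it was 0 as reported, 230 with DESeq2, 364 without the filter, 22 with Xist and 9 with all 23 tumors. For IT against IP it was 99 as reported, 403 with DESeq2, 453 without the filter and 6 (without CONTROL_IP 1) to 168 (without MIX_IT 22) when a tumor was left out. The other comparisons had 0 to 5 calls as reported, 51 to 443 without the filter, 3 to 246 with DESeq2 and 0 to 5 under the other settings with all tumors. Low counts limit Lcn2 and Retnlg, and S100a9 in several tumors. No paired analysis was possible because the groups share no replicate numbers.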
